A study of Mus musculus with 6 samples.

Results

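*Traj18* is the J segment that joins *Trav11* in the invariant TCR α chain of mouse iNKT cells. Its use was measured in 6 libraries of TCR α sequences from pre-selection DP thymocytes, as the sequences whose J assignment listed only TRAJ18. There were 112226 such sequences among 3675237 in all, or 3.05%, and 67457 of them were productive. Each library held 1 *Trav* amplicon (*Trav9*, *Trav11* or *Trav19*) from 1 genotype, with 249693 to 1587280 sequences. WT mice were BALB/c, and SKG mice carry a point mutation of *Zap70* that lowers TCR signals. Per the study's methods, both were F3 animals bred from crosses of SKG mice with BALB/cJ, and their age and the number pooled per library were not given in the sources used here. The sort gate took CD4+ and CD8α+ cells that were TCRβ-, CD69- and CD5-, and the amplicons were made from their RNA, although a label field names genomic DNA. Since each combination of genotype and amplicon was sequenced once, no difference below has a replicate check, and the tests set one library against another rather than genotype against genotype.

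The α locus can rearrange more than once on the same allele. The first joins use *Traj* segments next to the *Trav* array, and later joins replace them with segments farther along, so that a segment as far along the array as *Traj18* is reached mainly by secondary rearrangements in DP cells that live long enough. iNKT cells begin with such a *Trav11-Traj18* join, and their TCR binds glycolipids presented by CD1d.

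The segments are shown in their order along the plus strand of chromosome 14, from *Traj23* to *Traj15*, because the comparisons below set *Traj18* against the segments around it. Each line holds the recombination signal and then the coding part, as read from the NCBIM37 assembly with GENCODE names matched through the RefSeq table. Capitals mark, in this order, the 9 bases of the nonamer position, the 7 bases of the heptamer position after a spacer of 12 bases, and the codons of the Phe-Gly-X-Gly motif that follows the CDR3 loop, where the segment has it.
Traj23: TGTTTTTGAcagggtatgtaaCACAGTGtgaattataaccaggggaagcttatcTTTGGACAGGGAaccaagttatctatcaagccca
Traj22: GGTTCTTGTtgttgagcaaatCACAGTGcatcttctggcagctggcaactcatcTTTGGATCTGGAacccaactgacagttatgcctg
Traj21: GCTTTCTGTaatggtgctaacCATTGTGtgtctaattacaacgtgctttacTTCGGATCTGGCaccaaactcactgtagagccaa
Traj20: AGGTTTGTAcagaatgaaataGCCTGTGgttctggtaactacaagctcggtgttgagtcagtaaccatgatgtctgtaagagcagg
Traj19: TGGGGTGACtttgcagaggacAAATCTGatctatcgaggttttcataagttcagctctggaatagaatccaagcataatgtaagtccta
Traj18: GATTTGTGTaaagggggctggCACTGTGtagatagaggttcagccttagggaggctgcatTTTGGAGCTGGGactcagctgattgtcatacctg
Traj17: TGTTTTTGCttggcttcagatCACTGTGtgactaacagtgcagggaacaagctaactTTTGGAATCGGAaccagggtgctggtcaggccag
Traj16: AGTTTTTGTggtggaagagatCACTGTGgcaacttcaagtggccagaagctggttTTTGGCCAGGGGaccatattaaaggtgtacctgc
Traj15: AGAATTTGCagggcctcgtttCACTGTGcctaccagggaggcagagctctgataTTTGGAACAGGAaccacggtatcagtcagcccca

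*Traj18* (Gm17009 in the annotation) is a single exon of 66 bases at chr14:54820452-54820517. Its heptamer reads CACTGTG, as do those of *Traj17*, *Traj16* and *Traj15*. This exact heptamer lay directly before 16 of the 59 named *Traj* segments (27.1%), read on the strand of the genes. *Traj18* has 32 coding bases before the motif. None of the 42 segments with the motif has more, 4 others have as many, and the median is 27.5. The assembly is not BALB/c, so alleles in these mice can differ from the letters shown. In the lists, all *Traj18* sequences were assigned the same allele, TRAJ18*01. *Traj19* and *Traj20* lie between *Traj18* and *Traj21* and lack the motif, and they were listed alone for only 1 and 20 sequences. Thus *Traj21* is the nearest segment in use on that side and *Traj17*, which starts 998 bases after the start of *Traj18*, on the other.

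The main V genes were *Trav9d-2*, *Trav9d-3*, *Trav9d-4*, *Trav9-2*, *Trav9-3* and *Trav9-4*, each listed alone, *Trav11* or *Trav11d*, and *Trav19*. They held 34965 of 36110 WT and 18677 of 19381 SKG *Traj18* sequences of the *Trav9* libraries and nearly all of those of the *Trav11* libraries. In the *Trav19* libraries they held 1513 of 1730 in WT and 1536 of 1701 in SKG, and most of the rest listed *Trav4d-3*. In the *Trav9* libraries, 1116 WT and 685 SKG *Traj18* sequences listed several *Trav9* genes and were left out of the values by V gene. Nearly all *Trav11* sequences (524252) listed both *Trav11* and *Trav11d*, and 2 listed a single copy. These copies end 681 and 1376 kb before *Traj18* in NCBIM37 and cannot be told apart here, so they are called *Trav11* together. *Trav9d-2* ends 1308 kb, *Trav9d-3* 1280 kb, *Trav9d-4* 1217 kb, *Trav9-2* 609 kb, *Trav9-4* 524 kb and *Trav19* 355 kb before *Traj18*.

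The share of *Traj18* was highest with *Trav11* and lowest with *Trav19* in both genotypes. Shares are percentages of the sequences of a V gene that list a single *Traj* gene, of every functionality class, and the 95% CI are Wilson intervals that cover counting error only. With *Trav11*, *Traj18* was joined in 10.2% of 249466 WT sequences (95% CI 10.1 to 10.4) and in 10.1% of 274783 SKG sequences (95% CI 9.99 to 10.2). With *Trav19*, which lies nearest to *Traj18* of the V genes with a position above, it was joined in 0.358% of 422177 WT sequences (95% CI 0.341 to 0.377) and in 0.393% of 390731 SKG sequences (95% CI 0.374 to 0.413). The *Trav11* share was thus 28.6-fold that of *Trav19* in WT and 25.7-fold in SKG.

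The *Trav9* genes lay between. The highest was *Trav9d-4*, with 4.57% (95% CI 4.46 to 4.68) of WT and 5.11% (95% CI 4.95 to 5.27) of SKG sequences. *Trav9d-3* had 3.07% in WT and 3.54% in SKG, and *Trav9d-2* had 2.75% in WT and 3.82% in SKG. The genes of the downstream group had lower shares, *Trav9-3* with 1.96% in WT and 1.74% in SKG, *Trav9-2* with 1.56% in WT and 2.34% in SKG, and *Trav9-4* with 1.297% in WT and 1.42% in SKG. In both genotypes, each of the 3 upstream genes thus had a higher share than each of the downstream ones. No position was matched for *Trav9-3* in NCBIM37, so its place in the downstream group is not shown here.

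**Figure D1:**
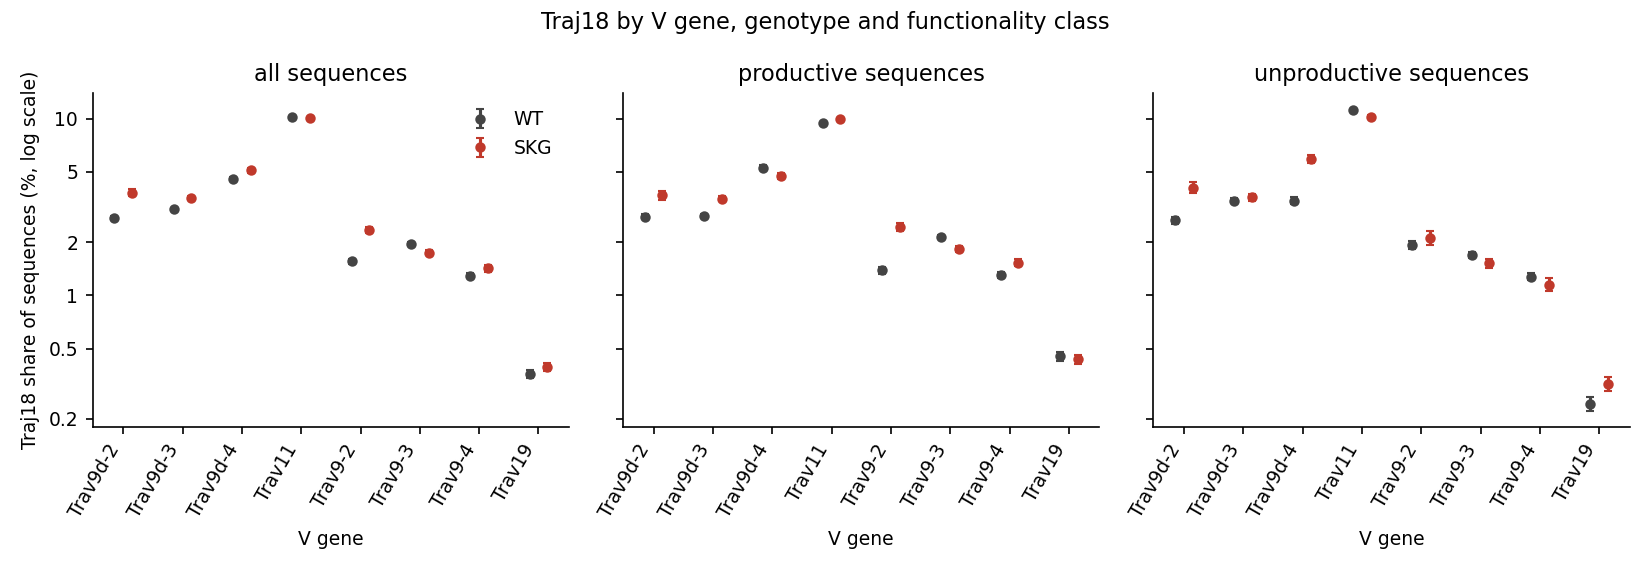
*Traj18* share of the sequences of each V gene (%, log scale) in WT (grey) and SKG (red) libraries, for all, productive and unproductive sequences; bars are 95% Wilson intervals, which cover counting error only. In all 3 panels *Trav11* is the highest, from 9.43% to 11.2%, and *Trav19* the lowest, from 0.242% to 0.452%.

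Productive shares of single segments differed between the WT and SKG libraries by more than counting error. The variance was therefore multiplied by a factor for this spread, which was 78.9 for *Trav11*, 99.8 for *Trav19* and between 25.9 and 39.1 for the *Trav9* genes. Quasi-binomial comparisons with this variance are given below as scaled comparisons. The factor does not measure how far the segment shares themselves differed between the 2 libraries. That spread gave larger factors, 250.6 for *Trav11*, 344.1 for *Trav19* and between 50.2 and 178.6 for the *Trav9* genes. Some comparisons were repeated with it, a choice made after seeing the data. They were those of adjacent V genes, of *Trav9* pairs, of *Traj18* relative to 6 segments around it, and of SKG with WT over every class. The other scaled comparisons below used only the first factor. With single libraries, neither variance holds the spread between animals. Both come from the WT library set against the SKG library, so any genotype difference in single segments is part of them. In WT, the order was *Trav11*, *Trav9d-4*, *Trav9d-3*, *Trav9d-2*, *Trav9-3*, *Trav9-2*, *Trav9-4* and *Trav19*. By quasi-binomial comparison, the next gene down was lower for *Trav11* against *Trav9d-4* (by 5.66 percentage points, standard error 0.734, adjusted p = 1.62e-13), for *Trav9d-4* against *Trav9d-3* (adjusted p = 0.000834), for *Trav9d-2* against *Trav9-3* (adjusted p = 0.00233) and for *Trav9-4* against *Trav19* (adjusted p = 4.94e-05). The remaining neighbours in this order did not pass the 0.05 threshold. In SKG, by the same quasi-binomial comparison, *Trav11* exceeded *Trav9d-4* by 4.99 points (standard error 0.884, adjusted p = 1.15e-07), *Trav9d-3* exceeded *Trav9-2* by 1.20 points (adjusted p = 0.0138), *Trav9-4* exceeded *Trav19* by 1.03 points (adjusted p = 0.00264), and the other neighbours did not pass the 0.05 threshold. The p-values were adjusted over the 14 comparisons. The pairs came from sorting the V genes by these same shares, so the direction of each difference was set by the sorting. With the spread of shares as the variance, only *Trav11* against *Trav9d-4* passed, in WT (quasi-binomial comparison, adjusted p = 0.000207) and in SKG (adjusted p = 0.0107), and the order of the lower genes was not resolved. Within the *Trav9* libraries alone, where the V genes share a library, 12 of 15 pairs of genes differed by quasi-binomial comparison in WT and 11 of 15 in SKG (adjusted over the 15 pairs of a library), against 9 and 4 with the spread of shares.

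Among all *Traj* segments joined to *Trav11*, *Traj18* ranked first in both genotypes when every class was counted. Among productive SKG sequences it had rank 2, with 9.95% below the 10.8% of *Traj32*. With *Trav9d-4* it had rank 3 in both. With the other V genes its rank was between 8 and 32. The most used segment of *Trav19* was *Traj56*, near the start of the array, with 19.97% in WT and 20.7% in SKG. For *Trav9d-3* it was *Traj4*, with 6.01% in WT and 5.74% in SKG, and for *Trav9d-4* it was *Traj4* in WT (5.07%) and *Traj15* in SKG (5.48%). *Trav9d-2* used *Traj56* most in WT (5.76%) and *Traj12* in SKG (5.72%), *Trav9-2* used *Traj56* (7.33%) and *Traj31* (4.84%), *Trav9-3* used *Traj56* (5.77%) and *Traj40* (5.18%), and *Trav9-4* used *Traj52* (8.36%) and *Traj49* (6.55%). Among sequences that use *Traj1* to *Traj30*, the distal part of the array, *Traj18* made up 23.02% of *Trav11* sequences (95% CI 22.8 to 23.3) in WT, and the SKG value was 21.04% (95% CI 20.8 to 21.3). With the other V genes it made up between 4.73% (*Trav9d-2*) and 8.17% (*Trav9-4*) in WT and between 5.67% (*Trav19*) and 7.73% (*Trav9d-4*) in SKG. *Trav19* sequences rarely used these segments, but when they did, *Traj18* held 8.14% of them in WT, close to the 8.17% of *Trav9-4*.

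To compare *Traj18* with its surroundings, it was set against the segments *Traj15*, *Traj16*, *Traj17*, *Traj21*, *Traj22* and *Traj23*. With *Trav11*, all 6 lay below *Traj18*. The same held with *Trav9-4* in both genotypes and with *Trav9d-4* and *Trav9-3* in WT. There *Traj18* was at 1.36 to 1.78 times the mean of the 6, against 7.05 in WT and 6.06 in SKG with *Trav11*. In WT, *Traj17* held 4.87% of the *Trav11* sequences, *Traj15* 2.39%, *Traj21* 1.14%, *Traj16* 0.222% and *Traj22* 0.0914%, and *Traj23* was found in 0 of 249466 sequences, which allows a share of up to 0.00120%. In SKG, *Traj17* held 5.60%, *Traj15* 2.77%, *Traj21* 1.42%, *Traj16* 0.1499%, *Traj23* 0.0364% and *Traj22* 0.0349%. The use of the array by *Trav11* was thus uneven around *Traj18*, with *Traj17* and *Traj15* used often and *Traj16*, *Traj22* and *Traj23* hardly at all.

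The same segments were used more evenly with *Trav9d-3*, where *Traj18* was not prominent. In WT, *Traj15* held 4.45% of the *Trav9d-3* sequences, *Traj17* 3.38%, *Traj22* 3.23%, *Traj18* 3.07%, *Traj16* 2.69%, *Traj21* 2.34% and *Traj23* 1.82%. In SKG, *Traj18*, with 3.54%, came second to *Traj15*, with 4.78%. With *Trav19*, *Traj18* was second of these segments in WT, with 0.358% below the 0.412% of *Traj21*, while in SKG *Traj15* (0.662%), *Traj22* (0.517%), *Traj21* (0.432%) and *Traj17* (0.398%) were above its 0.393%.

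**Figure D2:**
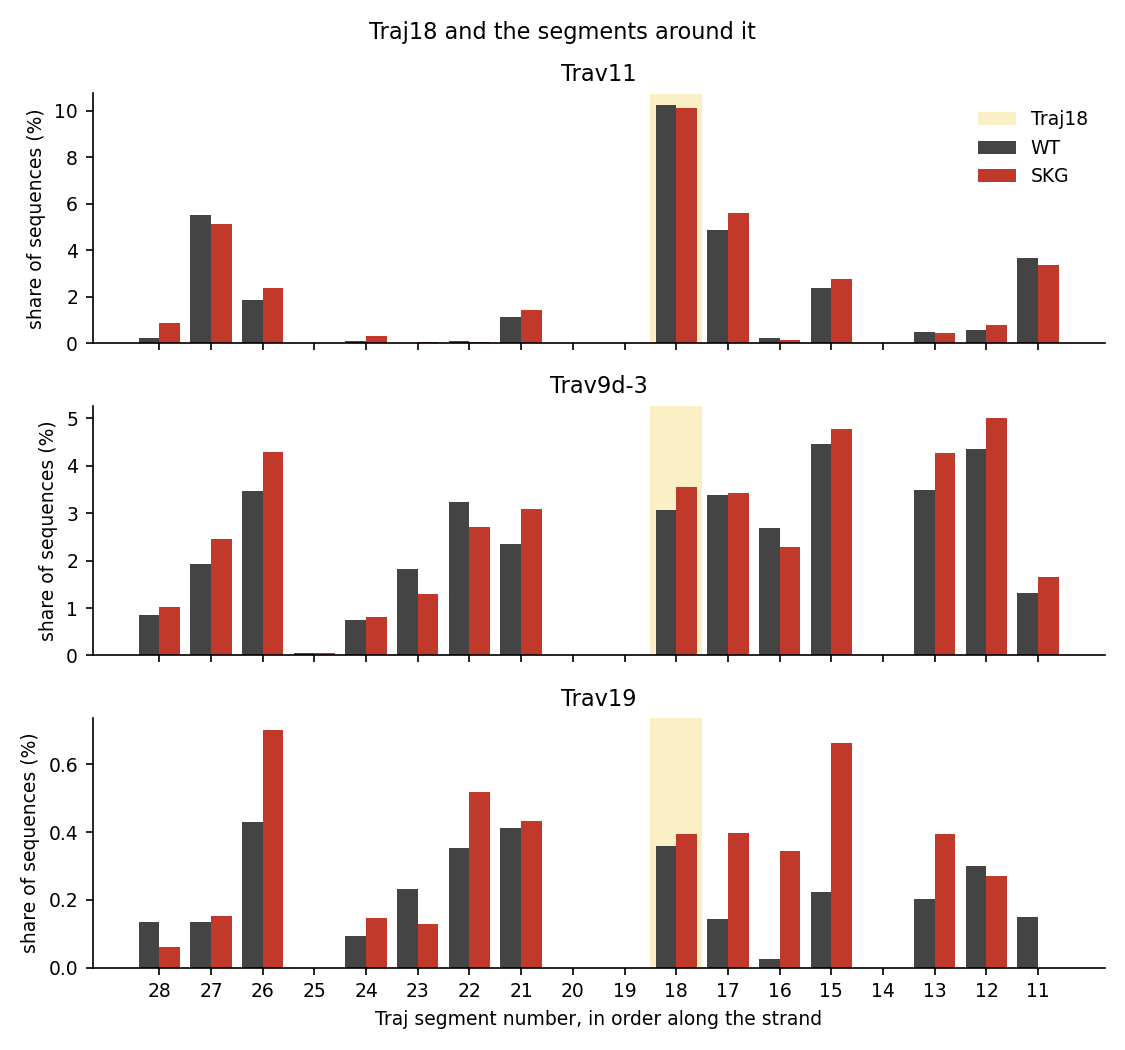
Share of sequences (%) for *Traj28* to *Traj11* in their order along the strand, with *Trav11*, *Trav9d-3* and *Trav19* in WT (grey) and SKG (red); *Traj18* is shaded, and the vertical scale differs between the panels. *Traj18* reaches 10.2% and 10.1% with *Trav11*, 1.81 to 2.10 times the share of *Traj17* beside it, and does not stand out with *Trav9d-3*. With *Trav19* it is at 2.51 times the share of *Traj17* in WT and 0.988 times in SKG.

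Relative to the sum of the 6 neighbours, there were 1.17 *Traj18* sequences per neighbour sequence with *Trav11* in WT and 1.01 in SKG. With *Trav9d-3* this ratio was 0.171 in WT and 0.202 in SKG, and with *Trav19* it was 0.258 in WT and 0.158 in SKG. The *Trav11* ratio exceeded that of *Trav9d-3* 6.86-fold in WT, with a 95% CI by the scaled variance of 5.27 to 8.94, and 5.01-fold in SKG, where the CI was 3.70 to 6.78. It exceeded that of *Trav19* 4.56-fold in WT (CI 2.52 to 8.25), and the SKG excess was 6.37-fold (CI 3.63 to 11.2). Over all 7 other V genes in both genotypes the excess was between 3.55-fold and 7.21-fold, and all 14 quasi-binomial comparisons passed the 0.05 threshold (highest adjusted p = 5.25e-07). With the spread of shares as the variance, the intervals widened to 4.29 to 10.99 in WT and 2.92 to 8.60 in SKG against *Trav9d-3*, and to 1.52 to 13.7 in WT and 2.24 to 18.1 in SKG against *Trav19*. All 14 still passed by quasi-binomial comparison, with a highest adjusted p = 0.00689 for *Trav19* in WT, although each compares single libraries. Fisher's exact tests on the 4 comparisons with *Trav9d-3* and *Trav19* gave p no higher than 1e-300, the smallest value computed.

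The size of this excess depended on the neighbours chosen, of which *Trav11* rarely used *Traj16*, *Traj22* and *Traj23*. With *Traj17* and *Traj21* alone as neighbours, the excess over *Trav9d-3* was 1.67 on the log2 scale in WT and 1.40 in SKG, against 2.78 and 2.32 with all 6. Against *Traj17* alone, there were 2.10 *Traj18* sequences per *Traj17* sequence with *Trav11* in WT and 1.81 in SKG. With the other V genes this ratio lay between 0.776 (*Trav9d-2*) and 2.51 (*Trav19*) in WT, and between 0.988 (*Trav19*) and 2.19 (*Trav9-4*) in SKG. Against *Traj17* the excess of *Trav11* over *Trav9d-3* was 1.21 on the log2 scale in WT (standard error 0.24, quasi-binomial p = 5.75e-07) and 0.80 in SKG (standard error 0.28, scaled p = 0.00468). Against *Trav19* it did not pass the threshold. The log2 difference was -0.26 in WT (standard error 0.71, quasi-binomial p = 0.718) and 0.87 in SKG (standard error 0.54, scaled p = 0.106). The contrasts with fewer neighbours were not repeated with the spread of shares as the variance.

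**Figure D3:**
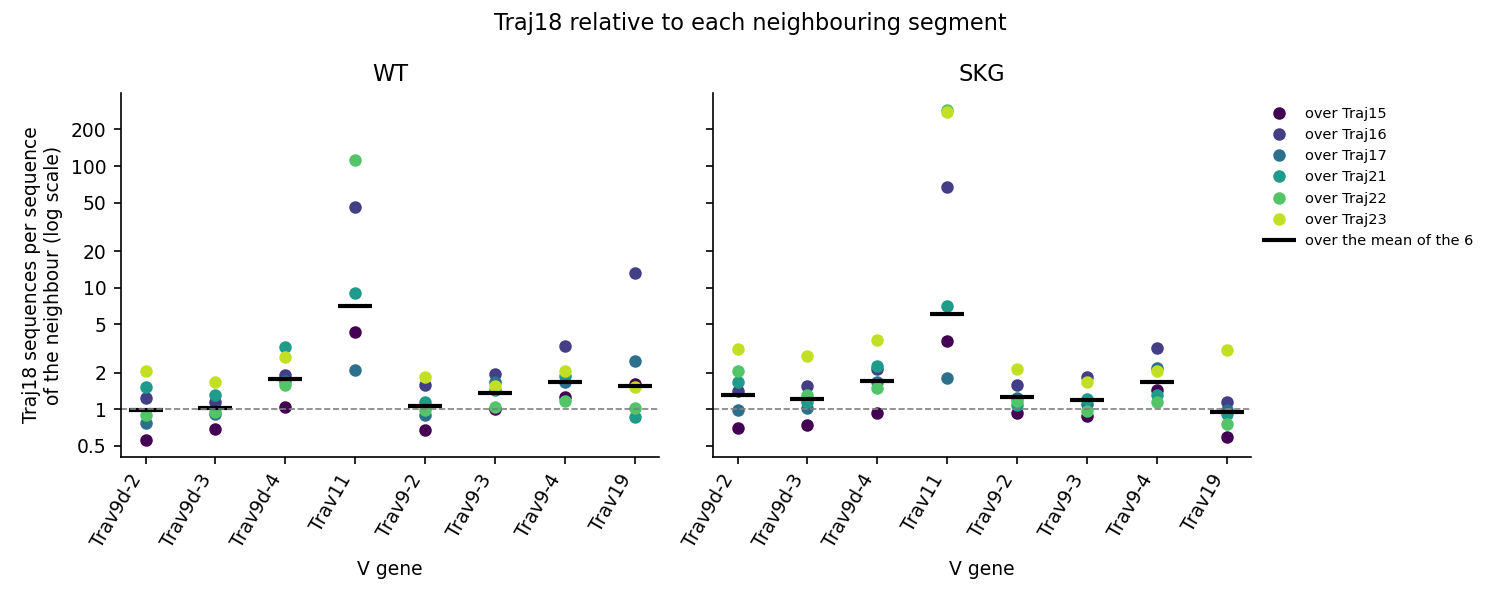
Number of *Traj18* sequences per sequence of each neighbour (log scale) by V gene in WT and SKG; the horizontal bars give the ratio to the mean of the 6 neighbours, and the dashed line marks equal use. With *Trav11* the ratio to the mean is 7.05 in WT and 6.06 in SKG, and the single neighbours in WT spread from 2.10 (*Traj17*) to 112 (*Traj22*); the ratio to *Traj23* in WT is not drawn, since that segment was at 0.

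*Traj18* was not the only segment that *Trav11* used more than the other V genes did. Its share with *Trav11* was at least 2-fold that with *Trav9d-3* in WT and in SKG, where 29.5% of 44 and 27.9% of 43 segments passed the same fold upward. In WT, 3 segments had a larger fold than the 3.34 of *Traj18*, namely *Traj47*, *Traj48* and *Traj50*, and in SKG 5 segments had one larger than 2.85. Against *Trav19*, 35.7% of 42 segments in WT and 43.9% of 41 in SKG passed 2-fold upward, and *Traj27*, *Traj17* and *Traj4* in WT and *Traj11* and *Traj27* in SKG had larger folds than *Traj18*. Against the other *Trav9* genes, between 0 (*Trav9-2*) and 6 (*Trav9d-4*) segments had larger folds than *Traj18* in WT, and between 1 (*Trav9-2* and *Trav9-3*) and 10 (*Trav9d-4*) in SKG. The *Traj18* fold over *Trav9d-4* was 2.24 in WT and 1.98 in SKG.

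Across the 16 combinations of V gene and genotype, the log2 share of *Traj18* followed most closely those of *Traj27* (Pearson's r = 0.940), *Traj6* (0.933), *Traj17* (0.931), *Traj4* (0.900) and *Traj15* (0.793), among 43 segments with at least 100 sequences. Without *Trav11*, the correlations over the remaining 14 were 0.933 for *Traj27*, 0.906 for *Traj6*, 0.933 for *Traj17*, 0.915 for *Traj4* and 0.945 for *Traj15*, and these were then no longer the highest. *Traj12* (0.970), *Traj22* (0.955) and *Traj13* (0.946) were above all 5, chosen after their values were seen. These values describe 6 libraries, of which the *Trav9* genes share a pair. They have no p-value.

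Between the libraries of WT and SKG mice, the share of *Traj18* was higher in SKG with 6 of the 8 V genes and lower with *Trav11* and *Trav9-3*. SKG minus WT was 1.07 percentage points for *Trav9d-2* (95% CI 0.143 to 1.99, scaled variance), 0.778 for *Trav9-2* (95% CI 0.0940 to 1.46), 0.542 for *Trav9d-4* (95% CI -0.510 to 1.59) and 0.478 for *Trav9d-3* (95% CI -0.243 to 1.20). It was 0.125 for *Trav9-4* (95% CI -0.310 to 0.559), 0.0347 for *Trav19* (95% CI -0.231 to 0.301), -0.133 for *Trav11* (95% CI -1.59 to 1.32) and -0.217 for *Trav9-3* (95% CI -0.605 to 0.170). None of the 8 differences passed the quasi-binomial comparison after adjustment over the V genes (lowest adjusted p = 0.103), and 2, *Trav9d-2* and *Trav9-2*, did so unadjusted (p = 0.0235 and p = 0.0258). With the spread of shares as the variance these became p = 0.183 and p = 0.323 (quasi-binomial comparisons), and no V gene passed. Fisher's exact tests, which take each sequence as independent, passed the threshold for 7 of 8 (the exception was *Trav11*, p = 0.112). For *Trav11* the interval leaves room for a lower share by up to 1.59 points or a higher one by up to 1.32 points in SKG, and with the spread of shares it ran from -2.73 to 2.46 points. Differences within these limits could not be told from the spread between 2 libraries, which itself includes any genotype difference in single segments. The standard error for *Trav11* was 0.0836 points from counting alone and 0.743 points with the scaled variance. The direction changed with the functionality class for 4 V genes. Among productive and unproductive sequences, SKG minus WT was -0.553 and 2.49 points for *Trav9d-4*, 0.524 and -0.938 for *Trav11*, 0.228 and -0.127 for *Trav9-4*, and -0.0157 and 0.0733 for *Trav19*, none of which passed after adjustment.

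**Figure D4:**
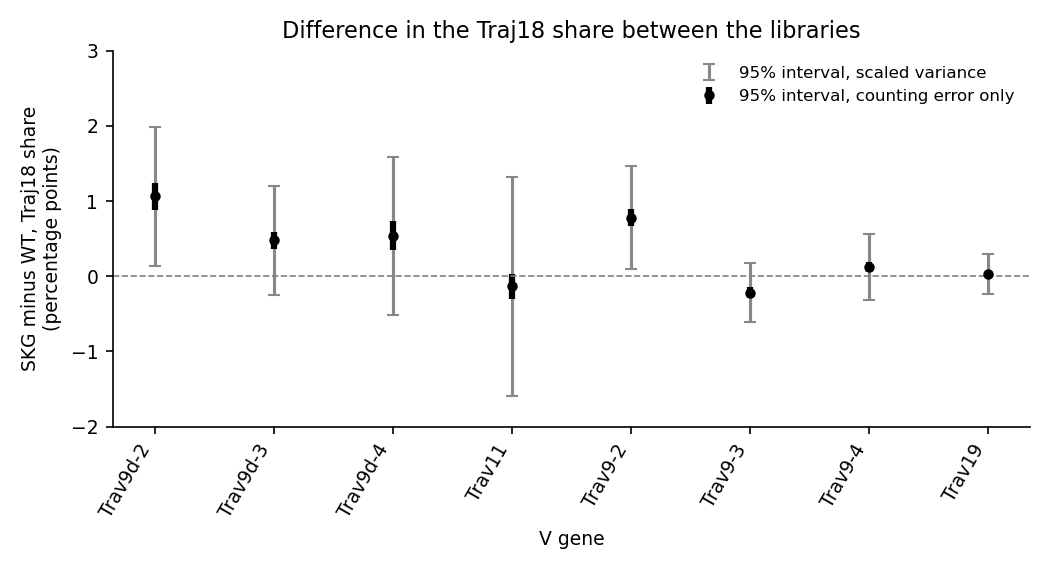
SKG minus WT difference in the *Traj18* share (percentage points) for each V gene, with 95% intervals from counting error alone (thick black) and from the variance scaled by the spread of productive shares (thin grey). The scaled intervals of *Trav9d-2* and *Trav9-2* lie above 0 before adjustment for 8 comparisons, and the other 6 include 0.

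Divided by its WT share, the SKG share of *Traj18* was within 1.5-fold with all 8 V genes when every class was counted, from 0.889 with *Trav9-3* to 1.497 with *Trav9-2*, the latter at the threshold. By class it lay past 1.5-fold for productive *Trav9-2* (1.75), unproductive *Trav9d-4* (1.72) and unproductive *Trav9d-2* sequences (1.53). In these classes, in the same order, 14 of 43, 12 of 44 and 11 of 42 segments passed 1.5-fold in either direction. Segments were counted if they had at least 50 sequences in both libraries. With every class counted, 27.9% of such segments passed 1.5-fold in either direction with *Trav9-2*, 29.7% with *Trav11* and 37.5% with *Trav19*. This percentage was 18.6% with *Trav9d-2*, 15.9% with *Trav9d-4*, 14% with *Trav9-4*, and 9.09% with each of *Trav9d-3* and *Trav9-3*. With *Trav11*, the log2 ratio of *Traj18* was -0.02 over every class, nearer to 0 than those of the other 36 segments, whose median size, *Traj18* included, was 0.35. By class the ratios had opposite signs, 0.08 among productive sequences, where 32 of 36 segments lay farther from 0, and -0.13 among unproductive ones, where 23 of 35 did. With *Trav9-3*, the log2 ratio of *Traj18* was -0.17 while the median over its segments was 0.09, and 8 of the other 43 segments were lower.

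The same ratios were computed for the neighbours. With *Trav11*, the median log2 ratio of the 5 neighbours measured in both libraries was 0.20, and the ratio of *Traj18* to its neighbours went from 1.17 in WT to 1.01 in SKG, a change of 0.859-fold (95% CI 0.691 to 1.07, scaled variance). With *Trav19*, where *Traj16* held 0.0270% in WT and 0.344% in SKG, the median of the neighbours was 1.02 and the ratio changed 0.615-fold (95% CI 0.282 to 1.34). With *Trav9d-2* the ratio changed 1.35-fold (95% CI 1.01 to 1.81, unadjusted quasi-binomial p = 0.0411). None of the 8 changes passed the quasi-binomial comparison after adjustment (lowest adjusted p = 0.329). The SKG to WT odds of *Traj18* did not pass the threshold between any pair of V genes after adjustment over 28 pairs. The largest contrast, *Trav9-2* against *Trav9-3*, was 0.77 on the log2 scale (standard error 0.29, quasi-binomial comparison, adjusted p = 0.133).

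The functionality class of the joins was examined next. A productive sequence has its V and J in the same reading frame and no stop codon. With *Trav11*, *Traj18* joins had the lowest productive share of the 8 V genes, 50.9% in WT (95% CI 50.2 to 51.5), while the SKG value was 54.8% (95% CI 54.2 to 55.4), beside 55.7% for all other *Traj* segments of *Trav11* in both genotypes. With the other V genes, all other segments were at 55.5% to 68.1% in WT and at 64.5% to 72.2% in SKG. Among *Trav11* segments with at least 50 sequences, 22 had a higher productive share than *Traj18* and 14 a lower one in WT. In SKG, 18 were higher and 20 lower. *Traj18* made up 9.43% of productive and 11.2% of unproductive WT *Trav11* sequences, and 9.95% and 10.3% of the SKG sequences. Against its 6 neighbours, the productive share of *Trav11-Traj18* differed by -6.34 points in WT (scaled standard error 4.08, quasi-binomial p = 0.120) and by -0.992 points in SKG (standard error 3.76, p = 0.792). Neither passed the scaled comparison. The WT difference did so against *Traj17* and *Traj21* alone, at -10.1 points (quasi-binomial p = 0.0249), and against the wider set from *Traj11* to *Traj17* and *Traj21* to *Traj28*, at -9.10 points (scaled p = 0.00688), both unadjusted.

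With the *Trav9* genes, the productive share of *Traj18* joins ranged from 56.3% (*Trav9d-3*) to 70.7% (*Trav9d-4*) in WT and from 63.4% (*Trav9d-2*) to 76.1% (*Trav9-4*) in SKG, and with *Trav19* it was 70.0% in WT and 71.5% in SKG. It was higher in SKG with *Trav9d-3* (by 13.4 points), *Trav9-2* (15.3 points), *Trav9-4* (12.4 points), *Trav9-3* (7.01 points), *Trav11* (3.96 points) and *Trav19* (1.56 points), and lower with *Trav9d-2* (-5.86 points) and *Trav9d-4* (-6.97 points). None of these passed the quasi-binomial comparison after adjustment over the V genes (lowest adjusted p = 0.0885). All other segments, pooled, were also more productive in SKG with most V genes, by 8.89 points for *Trav9d-3*, 4.74 for *Trav9-2*, 7.23 for *Trav9-4*, 8.58 for *Trav9-3*, 9.01 for *Trav19* and 8.42 for *Trav9d-4*, against 0.0321 for *Trav11* and -2.32 for *Trav9d-2*. For *Trav9-3* and *Trav19* this background was larger than the difference of *Traj18*. With *Trav9d-4*, *Traj18* was the most used segment of the productive WT sequences, with 5.29%, and of the unproductive SKG sequences, with 5.93%.

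Against the neighbours, *Traj18* had a higher productive share with *Trav9d-4* in WT, by 16.2 points (scaled standard error 3.62, quasi-binomial comparison, adjusted p = 6.06e-05), and with *Trav9-3* in WT, by 15.3 points (standard error 3.29, adjusted p = 5.23e-05), the only 2 of 16 comparisons that passed after adjustment. The neighbour *Traj23* was productive in at most 13.0% of the sequences of any V gene with 50 or more of them. Without *Traj23* these differences were 10.01 and 7.26 points, and none of the 16 quasi-binomial comparisons passed (lowest adjusted p = 0.0772).

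**Figure D5:**
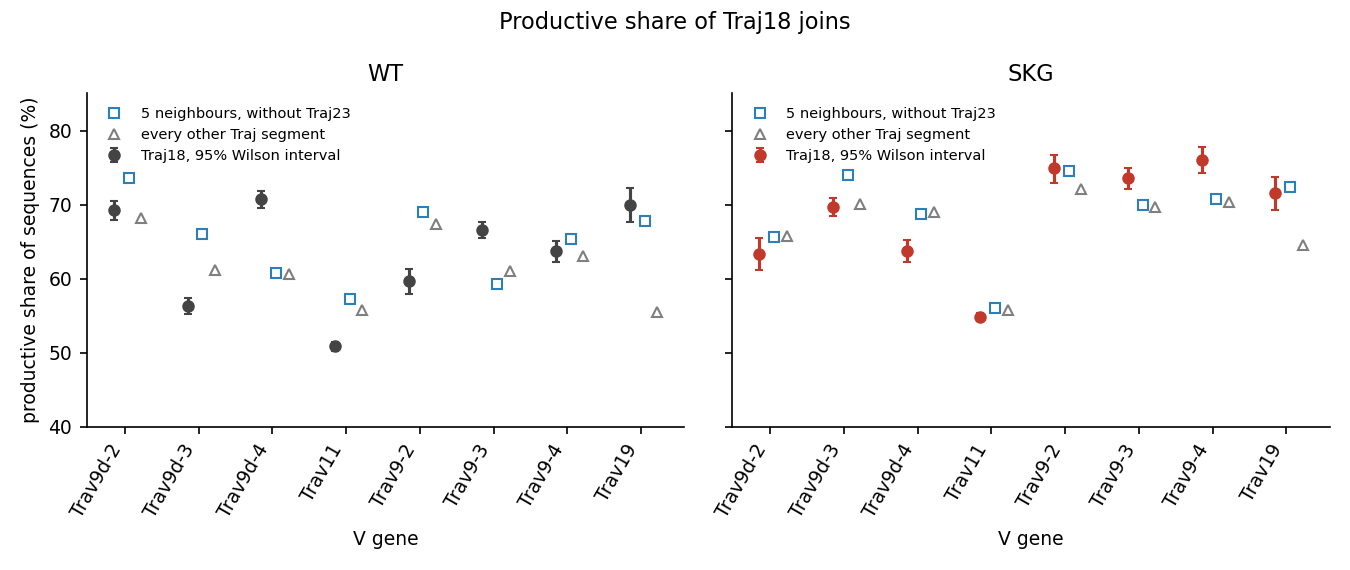
Productive share (%) of *Traj18* joins (filled circles, 95% Wilson intervals for counting error), of 5 neighbours without *Traj23* (squares) and of every other *Traj* segment (triangles) by V gene, in WT and SKG; the vertical axis starts at 40%. *Trav11-Traj18* is the lowest of the *Traj18* values in both genotypes, at 50.9% and 54.8%.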

How the data were processed

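Pre-selection DP thymocytes of WT and SKG mice were sorted, and *Tcra* rearrangements were amplified for *Trav9*, *Trav11* and *Trav19* in 6 libraries. Per the study's methods, MiXCR made clonal sequences from the read pairs, cutadapt (version 1.13) then removed primers, exact duplicates were dropped, and IMGT/HighV-QUEST annotated the rest. The deposited tables list annotated sequences, 1 per line, with a functionality class, V genes and J genes as text, and hold no count or unit of expression. Sequences with 1 *Traj* gene and a V assignment were counted. A sequence is not a cell.

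Shares have Wilson intervals at 95%. Scaled comparisons used a variance multiplied by a Pearson chi-square divided by its degrees of freedom. It came from a logistic fit (statsmodels 0.14.6) of productive sequences on segment and library, for segments that reached 50 sequences in both libraries. This is a quasi-binomial comparison. An alternative, chosen after seeing the data, took the chi-square of the table of segments by library instead, the spread of shares. All p-values are two-sided, and adjusted p-values are by Benjamini-Hochberg. Fisher's exact test (scipy 1.17.1) took sequences as independent. The difference in a *Traj18* share between 2 libraries was tested on data simulated from the WT *Trav11* profile. There the scaled comparison passed the threshold somewhat more often than its nominal rate. Contrasts between V genes and of productive shares were not simulated. Other software was Python 3.11.15, numpy 2.4.6, pandas 2.3.3 and matplotlib 3.10.9.

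*Traj18*, its neighbours and the other lists were chosen with earlier results of these data known. Named segments were *Traj18*, *Traj15* to *Traj23*, the most used segment of each V gene and the 5 segments with the highest correlation with *Traj18* (log2 share, 0.5 added to each count, at least 100 sequences). Segments named for a fold larger than that of *Traj18* were chosen after their values were seen. Alternatives were the functionality class, the first-listed *Traj* gene, other neighbours, other V assignments, distal segments, the minimum of sequences and the fold. Positions and sequences were read from NCBIM37.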

Additional observations from a re-analysis of the deposited data

Results flagged for a closer look

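A few V genes outside the main 8 were present in the libraries and also carried *Traj18*, in all but 1 of the library listings below at shares above the limit that a count of 0 allows. In the *Trav19* libraries, *Trav4d-3* was joined to *Traj18* in 5.65% of 3841 WT sequences (95% CI 4.96 to 6.43) and in 3.16% of 5096 SKG sequences (95% CI 2.71 to 3.68), beside 0.358% and 0.393% for *Trav19*. In the *Trav9* libraries, *Trav9-1* was joined to it in 1.35% of 1331 WT sequences (95% CI 0.857 to 2.13) and in 1.83% of 656 SKG sequences (95% CI 1.05 to 3.17). In the WT *Trav11* library, *Trav8d-2* was joined to it in 9.38% of 224 sequences (95% CI 6.21 to 13.9), and in the SKG library, the exception, in 1 of 365. These differences were not tested.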

How the results depend on the processing

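No paired analysis was possible because each group had 1 library, and for the same reason no replicate could be left out. With *Traj17* as the single neighbour, a choice made after seeing the data, the log2 excess of *Trav11* over *Trav19* was -0.26 in WT, below 0, and 0.87 in SKG, no longer past the threshold. The cause was not tested. The excess over *Trav9d-3* kept its direction and side of the threshold under every alternative run, from 1.21 to 2.87 in WT and from 0.80 to 2.41 in SKG. Each alternative was run by itself, so *Traj17* alone, which gave the lowest values, was not tested with the spread of shares as the variance. The productive share of *Trav11-Traj18* minus that of its neighbours in WT, -6.34 points, passed the threshold against *Traj17* and *Traj21*, at -10.1, and against the wider neighbours, at -9.10. In SKG no alternative passed. The *Trav11* share of *Traj18*, SKG minus WT, lay between -1.98 (distal segments) and 0.524 points (productive sequences), with no alternative past the threshold, and 0 of 8 V genes passed after adjustment under each class. Unadjusted, *Trav9d-2* lost its call in productive (0.885) and unproductive sequences (1.42), *Trav9-2* in unproductive sequences (0.185), and *Trav9d-4* gained one in unproductive sequences (2.49). With the spread of shares as the variance, also chosen after seeing the data, the 4 neighbour contrasts kept their side of the threshold and 0 of 8 V genes passed between genotypes, but only 2 of the 14 comparisons of adjacent V genes passed. At 2-fold in place of 1.5-fold, 7 *Trav11* segments passed between genotypes in place of 11. Values for *Trav11* or *Trav11d* alone were not run, since 2 sequences list a single copy.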
